A study of Bos indicus with 6 samples.

Results

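Receptors for noradrenaline, acetylcholine and oxytocin were followed in the isthmus, the muscular segment of the oviduct next to the uterus, of Nelore (Bos indicus) cows. The genes were ADRA1A, ADRA1B, ADRA1D, ADRA2A, ADRB1, CHRM2, CHRM3 and OXTR, chosen by name, and a row was taken where the symbol in the row name equalled a gene name. Of the 8 genes listed, 7 were found, on 1 row each, among the 24616 rows, of which 19971 carried a symbol and 4645 did not. No row carried the symbol ADRA2A, so that gene was not analysed here.

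All animals were multiparous cows presynchronised with a prostaglandin F2α analog and a GnRH agonist, and given a progesterone device of 1 g together with 2 mg of estradiol benzoate 10 days before the GnRH injection that induced ovulation, and the prostaglandin at device removal and again 6 h later. In the LF/LCL group (larger ovulatory follicle, larger corpus luteum) a further prostaglandin injection was given when the device was placed, and 42 h passed from removal of the device to GnRH. In the SF/SCL group (smaller follicle, smaller corpus luteum) this interval was 30 h. Tissue of the oviduct on the side of the corpus luteum was taken on day 4, with 1 library for each of 3 LF/LCL and 3 SF/SCL cows, and these were the top-ranked and bottom-ranked animals of the 2 groups by ovarian and hormonal measures. Whole isthmus was sequenced, so that muscle, epithelium, stroma, vessels and nerve were read together.

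The isthmus is wrapped in circular smooth muscle that receives a dense sympathetic supply, and its contraction and relaxation take part in holding and releasing sperm and embryo. The α1-adrenergic receptors (ADRA1A, ADRA1B, ADRA1D), the M3 muscarinic receptor (CHRM3) and the oxytocin receptor (OXTR) couple to Gq, which activates phospholipase Cβ, releases calcium through IP3 receptors and so leads to myosin phosphorylation by MYLK. The β1-adrenergic receptor (ADRB1) couples to Gs and raises cyclic AMP, which relaxes smooth muscle, while ADRA2A and the M2 muscarinic receptor (CHRM2) couple to Gi and lower it.

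Values are normalized counts, that is, reads per gene divided by the size factor of the library. Log2 fold changes are SF/SCL over LF/LCL on the scale log2(normalized count + 1), which understates the change of low genes, and a negative value is lower in SF/SCL. The libraries held 23899117 to 34193164 reads in genes. SF/SCL cow 489215 stood apart from the other cows over the whole transcriptome. Its normalized counts of the genes tested summed to 33743300, against 25207700 to 26801300 in the other cows, and its size factor was the lowest (0.751). By the paper's read counts, its library also had the smallest share of uniquely mapped among mapped isthmus reads. Whether the library or the animal differs was not tested. Values without it are given beside the receptor genes and the main results that it moves. Gene lengths were not used here, so levels are compared between cows and not between genes.

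Of the 7 receptor genes, 5 passed the filter (mean above 5 and above the SD) and were tested, whereas ADRA1A and CHRM2 did not pass. Of these, 0 of 5 passed an adjusted p-value of 0.05 in limma (Benjamini-Hochberg adjustment over the 15387 genes tested), where 0% of all genes passed. Before adjustment 0 of 5 had p under 0.05 in limma, against 8.66% of all genes, and 0 of 5 in edgeR, which after adjustment also called 0. DESeq2 called 0 of 5 after adjustment, against 2.7% of all genes, with 1 of 5, ADRA1B, under 0.05 before adjustment. The normalized counts of the groups overlapped for all 7 receptor genes, while they were free of overlap for 18.1% of all genes tested. Among the 5 tested, ADRA1B, ADRA1D and ADRB1 had a lower mean log2 level in SF/SCL, and CHRM3 and OXTR a higher one.

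**Figure D1:**
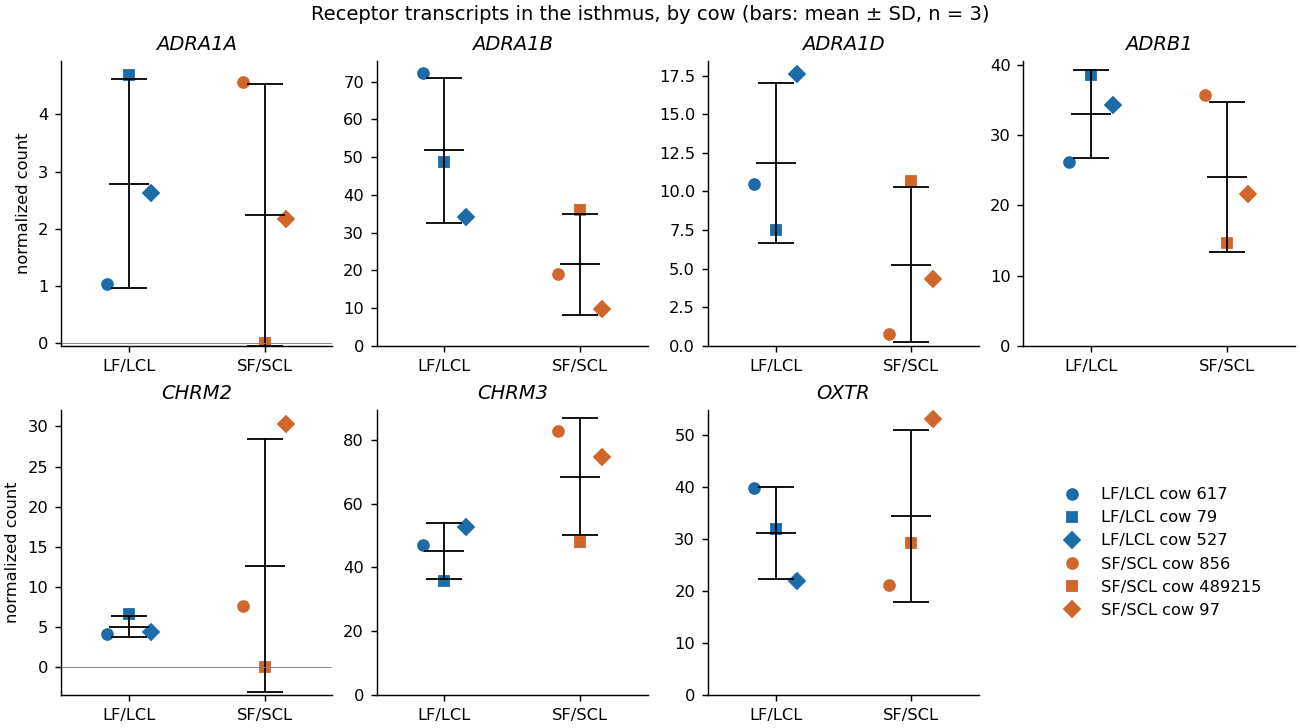
Normalized count (vertical axis, a separate scale for each gene) of the 7 receptor genes in each of the 3 LF/LCL and 3 SF/SCL cows, with the mean and SD of each group as bars. For ADRA1B and ADRA1D, SF/SCL cows 856 and 97 lie below every LF/LCL cow and cow 489215 lies among them, and for CHRM3 cows 856 and 97 lie above every LF/LCL cow.

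ADRA1B, the α1B-adrenergic receptor (ENSBTAG00000040253), had the receptor difference nearest to the threshold. Its normalized counts were 72.2, 48.8 and 34.3 in LF/LCL cows 617, 79 and 527, and 19.0, 35.9 and 9.75 in SF/SCL cows 856, 489215 and 97. All but cow 489215 of the SF/SCL group lay below the LF/LCL range, and that cow lay just above its lowest value. Before scaling, cow 489215 had 27 reads (size factor 0.751) and cow 527 had 39 (size factor 1.14). The order of these cows, and with it the overlap of the groups for ADRA1B, thus rests on the size factors. The group means were 51.8 ± 19.2 and 21.6 ± 13.3 (SD, n = 3 each), and the mean log2 levels differed 2.53-fold. The fold change on the log2 scale was -1.34 (SE 0.57, 95% confidence interval -2.72 to 0.04, limma adjusted p = 0.597). Without cow 489215 it was -1.78, with an adjusted p = 0.0505 from the same limma fit. The counts rested on 160 reads over the LF/LCL cows (exact 95% Poisson interval 136 to 187, for counting error only) and 61 reads over the SF/SCL cows (46.7 to 78.4).

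ADRA1D, the α1D-adrenergic receptor (ENSBTAG00000019504), followed the same order of groups at lower counts. It had 10.5, 7.51 and 17.6 in cows 617, 79 and 527 of LF/LCL, and 0.760, 10.7 and 4.33 in cows 856, 489215 and 97 of SF/SCL. Here too cow 489215 stood inside the LF/LCL range while cows 856 and 97 stood below it. Means were 11.8 ± 5.17 and 5.25 ± 5.01 (SD, n = 3 each), a 2.55-fold difference of the mean log2 levels. The log2 fold change of -1.35 had an SE of 0.79 (limma adjusted p = 0.731), and was -1.99 without cow 489215 (adjusted p = 0.110) and -0.63 without cow 856, in which a single read was counted. With 38 reads in LF/LCL (exact Poisson interval 26.9 to 52.2) and 13 in SF/SCL (6.92 to 22.2), the counting error alone is wide.

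ADRA1A, the α1A-adrenergic receptor (ENSBTAG00000031632), was close to the limit of detection. Its reads were 1, 5 and 3 in LF/LCL cows 617, 79 and 527, and 6, 0 and 2 in SF/SCL cows 856, 489215 and 97. The sign of its difference (log2 -0.42) turned when cow 489215 was left out (0.27). The 0 in cow 489215 allows up to 3 reads, or a normalized count of 3.99. Group totals were 9 reads (exact Poisson interval 4.12 to 17.1) and 8 reads (3.45 to 15.8), so that no difference of ADRA1A was detectable at this depth.

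ADRB1, the β1-adrenergic receptor (ENSBTAG00000001242), overlapped widely between the groups. It had normalized counts of 26.2, 38.5 and 34.3 in cows 617, 79 and 527 of LF/LCL and 35.7, 14.6 and 21.7 in cows 856, 489215 and 97 of SF/SCL. Cow 489215 was the lowest of the 6 and cow 856 reached the level of the LF/LCL cows. The means were 33.0 ± 6.26 and 24.0 ± 10.7 (SD, n = 3 each), with a log2 fold change of -0.51 (SE 0.46, 95% confidence interval -1.61 to 0.58, limma adjusted p = 0.843). It was -0.22 without cow 489215, a smaller difference than with that cow, unlike ADRA1B and ADRA1D.

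CHRM3, the M3 muscarinic receptor through which acetylcholine contracts smooth muscle and stimulates gland secretion (ENSBTAG00000008059), went the other way from the α1-adrenergic genes. Its normalized counts were 47.1, 35.7 and 52.7 in LF/LCL cows 617, 79 and 527, and 82.8, 47.9 and 74.8 in SF/SCL cows 856, 489215 and 97. Cows 856 and 97 were above every LF/LCL cow, and cow 489215 was inside the LF/LCL range. The means were 45.2 ± 8.68 and 68.5 ± 18.3 (SD, n = 3 each), and the mean log2 levels differed 1.49-fold. On the log2 scale the change was 0.57 (SE 0.38, 95% confidence interval -0.34 to 1.48, limma adjusted p = 0.770), and 0.81 without cow 489215 (adjusted p = 0.129). The group totals were 143 reads (exact Poisson interval 121 to 168) and 214 reads (186 to 245).

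CHRM2, the M2 muscarinic receptor (ENSBTAG00000014674), varied more within SF/SCL than between the groups. LF/LCL cows 617, 79 and 527 had 4.19, 6.57 and 4.39, and SF/SCL cows 856, 489215 and 97 had 7.60, 0 and 30.3. The highest and the lowest value thus both stood in SF/SCL, and cow 97 alone supplied 28 of the 38 reads of that group. The mean log2 levels differed by 0.12 (SF/SCL minus LF/LCL), which became 1.46 without cow 489215 and -1.02 without cow 97. As its SD over the 6 libraries, 10.9, exceeded its mean of 8.85, CHRM2 did not pass the filter, and with the filter on the mean alone or without a filter its limma adjusted p was 0.984 and 0.982.

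OXTR, the oxytocin receptor (ENSBTAG00000019772), whose transcription in the uterus is known to respond to estrogen and progesterone, showed no direction that held. The LF/LCL cows 617, 79 and 527 had 39.8, 31.9 and 21.96, and the SF/SCL cows 856, 489215 and 97 had 21.3, 29.3 and 53.1. The SF/SCL cows held both the lowest and the highest count. The means were 31.2 ± 8.93 and 34.6 ± 16.6 (SD, n = 3 each), with a log2 fold change of 0.08 (SE 0.48, limma adjusted p = 0.974). The 95% confidence interval of -1.07 to 1.24 leaves room for a change of more than 2-fold either way, and its sign turned without cow 97 (-0.27) or cow 527 (-0.14).

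**Figure D2:**
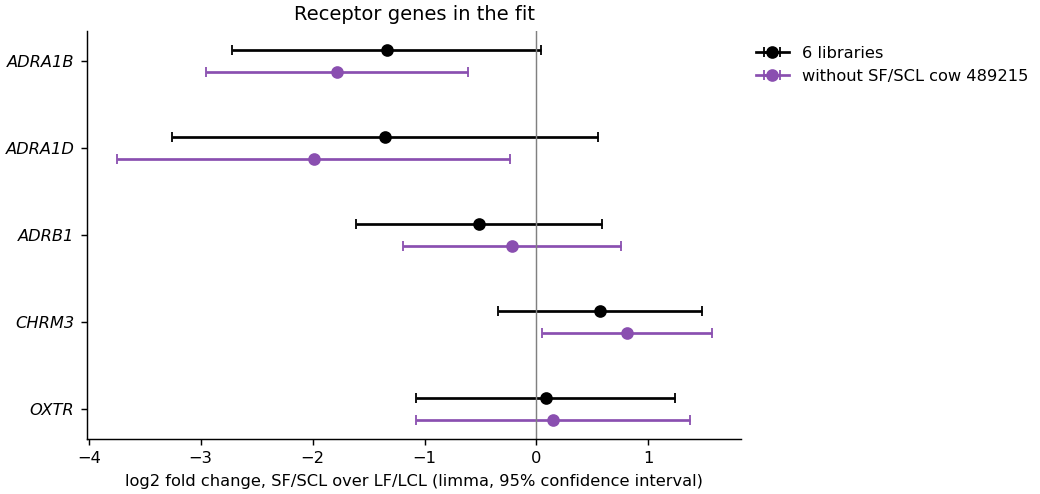
Log2 fold change (horizontal axis, SF/SCL over LF/LCL) of the 5 receptor genes tested, with the 95% confidence interval from limma, for all 6 libraries in black and without SF/SCL cow 489215 in purple. With 6 libraries every interval includes 0, and without that cow those of ADRA1B, ADRA1D and CHRM3 lie on 1 side of it.

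Leaving out cow 489215, 0 of the 5 receptor genes passed the adjusted threshold of limma, where 18.2% of all genes tested passed. An unadjusted p-value under 0.05 was then reached by 3 of 5, ADRA1B, ADRA1D and CHRM3, against 33.9% of all genes. The groups were then free of overlap for 3 of the 5 genes in the fit, and for CHRM2 besides, against 52% of all genes, so the share among the receptors is near that of the transcriptome. With library weights, which gave cow 489215 the lowest weight, limma called 2 of 5, ADRA1B and CHRM3, against 29.8% of all genes.

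To set the receptors against the amount of muscle in each piece of tissue, their levels were read beside 9 smooth muscle markers found of 11 listed (ACTA2, MYH11, CNN1, TAGLN, DES, SMTN, LMOD1, SYNPO2 and CALD1). None of these defining markers was at 0, and all 9 had a lower mean log2 level in SF/SCL, with a median log2 fold change of -0.60 against -0.02 over all genes tested and 0 past the adjusted threshold. In DESeq2 all 9 were also lower, with a median of -0.25, and in limma without cow 489215 the median was -0.97 with 7 past the threshold, where 18.2% of all genes passed. Their summed normalized count was 745927 to 861574 in LF/LCL, 349892 and 408957 in SF/SCL cows 856 and 97, and 1235370 in cow 489215. In whole tissue, fewer cells of a type and less RNA per cell cannot be told apart.

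ADRA1B and ADRA1D had Pearson correlations of 0.84 and 0.87 with the mean log2 level of the smooth muscle markers over the 6 libraries, CHRM3 one of -0.90, CHRM2 -0.71, ADRA1A -0.50, ADRB1 -0.19 and OXTR -0.08. These describe 6 points that share the normalization of each library. Relative to the marker mean, ADRA1B was lower in SF/SCL by 0.74 on the log2 scale (-10.7 against -9.97), ADRA1D by 0.75, and CHRM3 was higher by 1.17. The smallest p of these 7 comparisons was 0.2, for ADRA1B (exact permutation test over the 10 divisions, two-sided, 0.7 after Benjamini-Hochberg adjustment, with 0.1 the smallest p possible). The exact p was 0.3 for CHRM3 and 0.4 for ADRA1D (exact permutation test, two-sided, 0.7 after adjustment for each). For CHRM3 the relative level of cows 856 and 97, -8.20 and -8.48, exceeded the -10.4 to -9.84 of LF/LCL, and that of cow 489215 was -10.2.

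**Figure D3:**
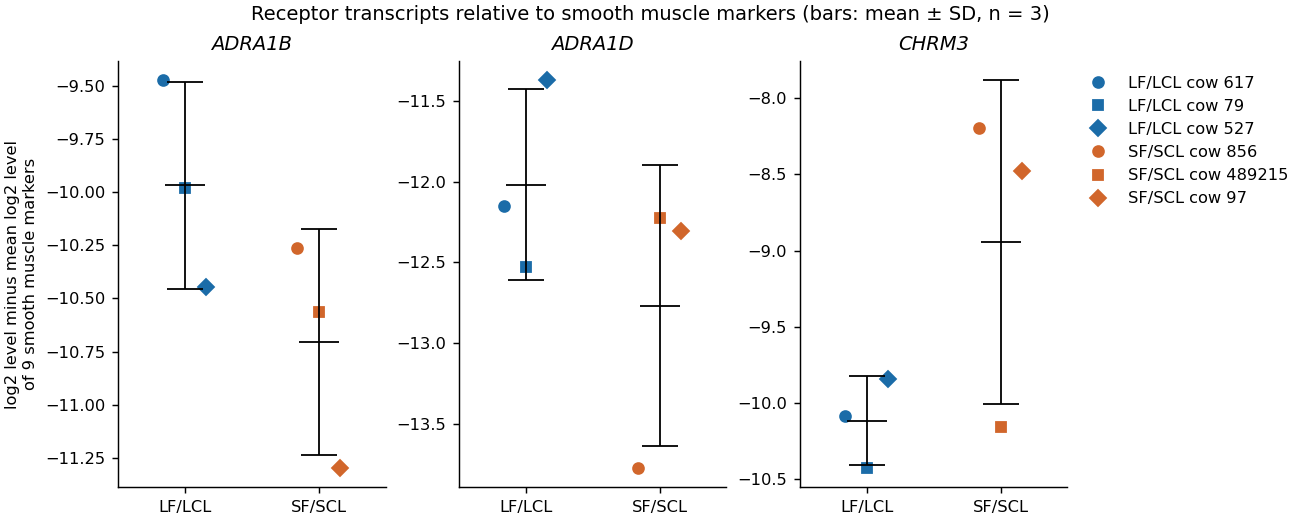
Log2 level of ADRA1B, ADRA1D and CHRM3 minus the mean log2 level of 9 smooth muscle markers (vertical axis, a separate scale for each gene), for each cow, with the mean and SD of each group as bars. CHRM3 stands at -8.20 and -8.48 in SF/SCL cows 856 and 97 and between -10.4 and -9.84 in the other 4 cows, and the groups overlap for all 3 genes.

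Markers of other cell types also differed in mean between the groups, with 0 past the adjusted threshold of limma, where 0% of all genes passed. Over all genes tested, 7915 had a lower and 7472 a higher mean log2 level in SF/SCL. The sums of the ciliated and endothelial markers overlapped between the groups. Of 7 secretory and general epithelial markers listed, 6 were found, none at 0, and all 5 in the fit had a higher mean in SF/SCL (median log2 fold change 0.76). Their summed count was 25381 to 35750 in LF/LCL and 54210 to 372562 in SF/SCL, the top values resting on OVGP1, the oviduct-specific glycoprotein, in cows 856 and 97. Of 9 ciliated epithelial markers, 7 were higher in SF/SCL (median 0.46), summing to 34889 to 43000 in LF/LCL and 31752 to 65279 in SF/SCL. All 6 fibroblast markers (median -0.93, sums 249703 to 312411 and 119034 to 203540), 5 of 6 mural cell markers (median -0.74, sums 11826 to 13510 and 5665 to 9439) and all 5 endothelial markers found (median -0.29, sums 11111 to 14606 and 9273 to 11635) were lower.

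Of the 9 nerve and Schwann cell markers found, 7 were in the fit, 4 lower and 3 higher in SF/SCL (median -0.09), and their sums, 3823 to 6186 in LF/LCL and 10206 to 32957 in SF/SCL, rested on S100B, which epithelium can also express. The neurofilament NEFL was at 0 in 3 cows. The 5 leukocyte markers in the fit had a median of -0.33 (sums 1411 to 2356 and 1523 to 1885). The 4 mesothelial markers did not pass the filter and went different ways. Their sums, 2451 to 3313 in LF/LCL and 3483 to 26725 in SF/SCL, rested on MSLN and WT1, while LRRN4 had 283, 412 and 175 in LF/LCL cows 617, 79 and 527 and 3.798, 5.33 and 16.3 in SF/SCL cows 856, 489215 and 97, and UPK3B overlapped between the groups. The part of these shifts in the receptor values was not tested.

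Balances between receptors were compared inside each library, for genes that answer the same transmitter and for OXTR against CHRM3, where the size factor cancels apart from the pseudocount. In 5 pairs the difference between the groups was within the spread of the cows. The log2 ratio of CHRM3 to CHRM2 was 2.94 ± 0.57 in LF/LCL and 3.39 ± 2.17 in SF/SCL (SD, n = 3 each, exact permutation test, two-sided, p = 0.8, and 1 after Benjamini-Hochberg adjustment over the 5 pairs). That of ADRA1D to ADRA1B was -2.05 ± 0.98 and -2.06 ± 1.29 (exact permutation test, p = 1). These group means were close, but single cows ran from -3.51 to -0.93, and with n = 3 each a constant ratio cannot be shown. ADRA1A to ADRA1B, ADRA1A to ADRA1D and OXTR to CHRM3 differed by 0.92, 0.93 and -0.49 (exact permutation test, p = 0.6, 0.7 and 0.5). The pair of ADRA2A and ADRB1 could not be formed.

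Receptors of the same families that were not on the receptor list were read next, in 10 genes of which 9 were found and 7 tested. None passed the adjusted threshold of limma, 0 had an unadjusted p-value under 0.05, and the median log2 fold change was 0.01. ADRB3, the β3-adrenergic receptor, had 134 ± 23.6 and 160 ± 97.1 (SD, n = 3 each), where cow 489215 was lowest with 51.9 and the log2 fold change of 0.01 was 0.67 without it. ADRA2B, an α2-adrenergic receptor, had 276 ± 55.5 and 184 ± 86.5, with a log2 fold change of -0.71, and of -0.22 once cow 489215, whose count was 83.9, was left out.

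CHRM1 had 24.0 ± 9.08 and 11.7 ± 10.6 (SD, n = 3 each) and a log2 fold change of -1.24 (limma adjusted p = 0.695). CHRM4 had 3.98 ± 2.55 and 6.42 ± 3.73 and CHRM5 1.27 ± 0.53 and 0.253 ± 0.439, both at the edge of detection. Of the vasopressin receptors, which oxytocin can also bind, AVPR1A had 8.50 ± 4.69 and 6.51 ± 7.18, and AVPR2 10.3 ± 4.88 and 16.9 ± 15.4. AVPR1B was listed at 0 in every library, read against the same set floor of 3 reads in each.

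Genes that make, store, take up or break down the ligands numbered 19, all found, of which 11 were tested and 0 passed the adjusted threshold (median log2 fold change -0.37). SLC22A3, an extraneuronal monoamine transporter, had the smallest p of them, with 72.2, 98.6 and 71.1 in LF/LCL cows 617, 79 and 527 and 27.3, 15.98 and 54.2 in SF/SCL cows 856, 489215 and 97. The groups did not overlap, with -1.44 on the log2 scale (SE 0.51, limma adjusted p = 0.496). TH, the rate-limiting enzyme of catecholamine synthesis, had 51.7 ± 31.4 and 26.2 ± 23.7 (SD, n = 3 each), BCHE, which splits choline esters, 1366 ± 493 and 774 ± 646, and LNPEP, the aminopeptidase that degrades oxytocin, 1220 ± 217 and 1018 ± 750, with 153 in cow 489215. Their log2 fold changes were -1.19, -1.15 and -0.81. Without cow 489215 that of TH was -0.38 and that of LNPEP 0.26, and BCHE reached -1.81 and was called (limma adjusted p = 0.0409). CHAT and SLC5A7, which serve acetylcholine synthesis in nerve endings, were listed at 0 in all 6 libraries, with the same set floor of 3 reads. The hormone gene OXT stayed at or under a normalized count of 3.99. Transmitter and hormone supply themselves were not measured.

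Downstream of the receptors, 29 genes of G protein α subunits and their direct effectors were listed and found, on 30 rows because GNAS stands on a pair of rows, and 25 rows were tested. In limma 0 passed the adjusted threshold, 6 reached an unadjusted p-value under 0.05 (8.66% of all genes tested did), all higher in LF/LCL, and the median log2 fold change was -0.46. At that unadjusted level edgeR had 6 higher in LF/LCL and 1 in SF/SCL, and DESeq2 7 and 1. The gene higher in SF/SCL was ITPR3, an IP3 receptor, with log2 fold changes of 1.83 in edgeR and 1.85 in DESeq2. PLCB1, a phospholipase Cβ that Gq activates, had 788 ± 65.5 and 316 ± 87.2 (SD, n = 3 each), with -1.35 for the log2 fold change (SE 0.28, limma adjusted p = 0.367). ITPR1, an IP3 receptor that releases stored calcium, had 7702 ± 1035 and 4551 ± 240, or -0.75 (SE 0.18) on that scale. The groups did not overlap for PLCB1 or ITPR1, and DESeq2, which called 2.7% of all genes, called both, with adjusted p-values of 0.00197 and 0.00934. The adenylyl cyclases ADCY5 and ADCY7 had log2 fold changes of -1.13 and -0.72, also free of overlap.

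Of 15 genes that dampen receptor signalling, 13 were found and 12 tested, with 10 lower and 2 higher in SF/SCL, 0 past the adjusted threshold of limma and a median log2 fold change of -0.24. RGS5, an RGS protein of pericytes and vascular muscle, had 2367 ± 718 and 1249 ± 197 (SD, n = 3 each), or -0.89 on the log2 scale. RGS16 and RGS1, also GTPase-activating proteins, had -0.99 and 0.73, and the receptor kinase gene ADRBK1 -0.28. These are the 4 genes of smallest p in the list, with limma adjusted p-values of 0.420 to 0.764. In the list 4 genes were higher in LF/LCL and 1 in SF/SCL without overlap, of 12, against 18.1% of all genes in both directions.

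Of 16 genes of myosin phosphorylation, 13 were found, on 14 rows, and all 14 rows were tested, with 0 past the adjusted threshold of limma, 2 at an unadjusted p-value under 0.05 (8.66% of all genes tested), both higher in LF/LCL, and a median log2 fold change of -0.31. MYLK, the kinase that phosphorylates myosin light chain, had 78861, 74149 and 79842 in LF/LCL cows 617, 79 and 527 and 36320, 47882 and 37761 in SF/SCL cows 856, 489215 and 97. It was lower in every SF/SCL cow, cow 489215 included, at -0.94 on the log2 scale (SE 0.22, limma adjusted p = 0.381, DESeq2 adjusted p = 0.000593). ROCK1 and ROCK2, which inhibit myosin phosphatase, had -0.54 and -0.70, both without overlap, and PPP1R12A, the targeting subunit of that phosphatase, -0.72 with overlap. Of the 14 rows, 12 had a negative log2 fold change in limma and 7 in DESeq2, where the median was -0.10.

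Over the 5 lists together, 69 rows were tested and 11 reached an unadjusted p-value under 0.05 in limma, all higher in LF/LCL. Of all genes tested 8.66% did, 689 of them with LF/LCL above SF/SCL and 644 the other way. In edgeR 11 rows were higher in LF/LCL and 1 in SF/SCL, and in DESeq2 12 and 1. The lists were chosen with earlier results of these data known. The paper had already named PLCB1, ITPR1 and MYLK under processes enriched in the LF/LCL isthmus, so these counts are a description and not a test. The smooth muscle markers had a lower group mean in SF/SCL at the same time, but not in every SF/SCL cow. Their mean log2 level was 15.6 to 15.7 in the LF/LCL cows, 14.6 and 14.7 in cows 856 and 97, and 15.8 in cow 489215. Whether the amount of muscle has a part in the values of the 5 lists was not tested. Without cow 489215, limma called, of 68 rows, 12 with LF/LCL above SF/SCL and 6 the reverse, where 18.2% of all genes were called.

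**Figure D4:**
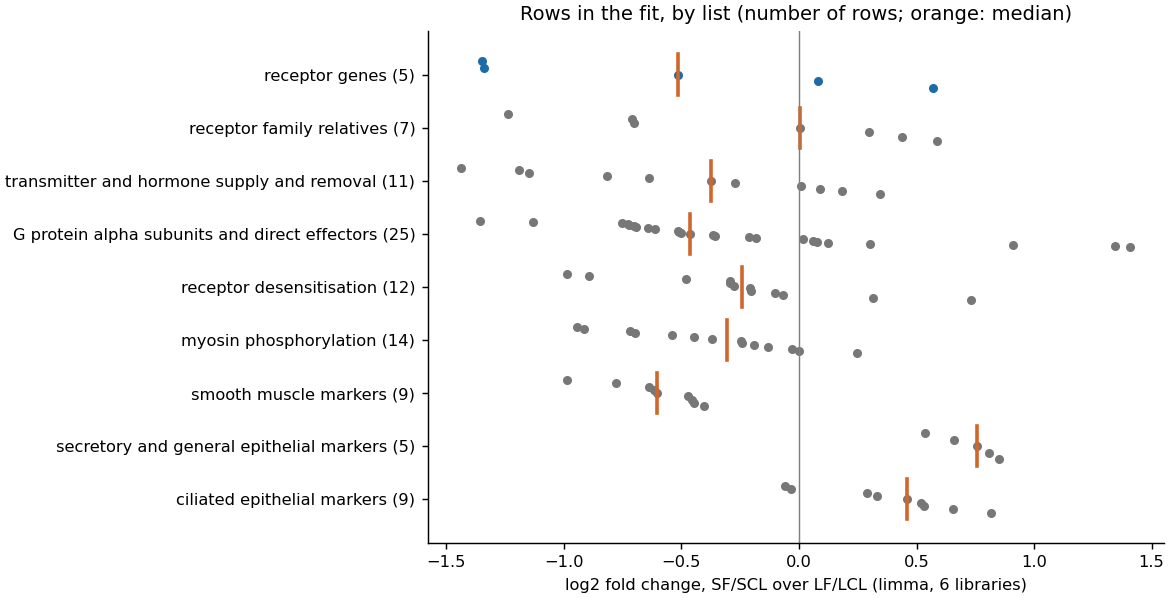
Log2 fold change (horizontal axis, SF/SCL over LF/LCL, limma, 6 libraries) of the rows in the fit, for the receptor genes in blue and for pathway and marker lists in grey, with the median of each list in orange and the number of rows in brackets. The medians are -0.51 for the receptor genes, 0.01 for the family relatives and -0.60 for the smooth muscle markers.

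The genes whose pattern over the 6 libraries was most like that of a receptor were found by Pearson's r of the log2 levels among all genes in the fit, as a description with n = 6. For ADRA1B they were CSF3R, RP2 and HCRTR1 (r = 0.994, 0.986 and 0.985), and for ADRA1D PGHS-2, GLI1 and COL11A1 (0.996, 0.995 and 0.993). For ADRB1 they were FYB, BAG4 and GPR111 (0.996, 0.994 and 0.990), for CHRM3 NAGPA and CRBN (0.997 and 0.989), and for OXTR PIGR, FJX1 and TBC1D22A (0.986, 0.980 and 0.926). PGHS-2, the inducible prostaglandin synthase, had 65.9, 45.1 and 87.0 in LF/LCL cows 617, 79 and 527 and 8.36, 57.2 and 29.3 in SF/SCL cows 856, 489215 and 97. PIGR, the polymeric immunoglobulin receptor of epithelium, was highest in cow 97 with 91.0, as OXTR was, and lowest in cow 856 with 7.60. An r over 0.95 was reached by 21 genes for ADRA1B, 67 for ADRA1D, 56 for ADRB1, 68 for CHRM3 and 2 for OXTR. These counts are among the genes with a symbol of the 15387 in the fit. The genes named are the top of that large search over only 6 libraries.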

How the data were processed

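RNA was polyadenylate-selected and sequenced as paired ends, 1 library per cow. The authors filtered reads with seqyClean, mapped them to the masked Bos taurus assembly UMD 3.1 with TopHat2 2.0.8 and Bowtie2 2.1.0, counted uniquely mapped reads per gene with HTSeq 0.5.4p2 and divided them by DESeq 1.12.1 size factors. The deposited signal values are these normalized counts. Whether strand was used in counting is not given in the sources used here. All values (100%, within 0.002) were whole multiples of a step per library, which gave back 23899117 to 34193164 reads per library.

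Genes with a mean above 5 and above the SD were tested (15387) by limma 3.58.1 in R 4.3.3 (trend, robust) on log2(value + 1), with group as the sole term. Since the file holds normalized rather than raw counts, limma and not edgeR was the main test, and on the recovered reads edgeR 4.0.16 (quasi-likelihood) and DESeq2 1.42.0 were run. Within-library ratios were tested by exact permutation in scipy 1.17.1. Filters, pseudocounts of 0.5 and 5, TMM scaling, library weights and leaving out each cow were tried. The fits were tested on simulated data. The labels give no batch, and each library is a separate cow. Intervals from reads cover counting error only. The members and lists were chosen with earlier results of these data known. Text genes were all receptors, their family relatives, the 4 genes of smallest p per other list and the 3 most similar genes per receptor, apart from some that are not reported here. No sequence or coordinate of the build was used.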

Additional observations from a re-analysis of the deposited data

How the results depend on the processing

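In limma, edgeR and DESeq2 and under other filters, pseudocounts and scalings, and without each cow in turn, 0 receptor genes passed the adjusted threshold, and with library weights 2 did. Those 2 were ADRA1B (log2 fold change -2.02, adjusted p = 0.00448) and CHRM3 (0.87, adjusted p = 0.0314). The weights put cow 489215 at 0.0477 and their estimation stopped before convergence. ADRA1B, ADRA1D and ADRB1 kept a negative log2 fold change and CHRM3 a positive one under all 14 alternatives, with ranges of -2.02 to -0.89, -1.99 to -0.63, -0.83 to -0.22 and 0.41 to 0.87, and adjusted p-values from limma, edgeR or DESeq2 with Benjamini-Hochberg adjustment of 0.00448 to 0.999, 0.0971 to 0.999, 0.238 to 0.999 and 0.0314 to 0.999. The changes of filter leave the fold change of a gene as it is, so among these alternatives they could not turn a sign. For OXTR the range without each cow was -0.27 to 0.37, and the value with library weights 0.51. For ADRA1A and CHRM2 it was -0.97 to 0.27 and -1.02 to 1.46. Among quantities relative to other genes, the direction turned when a cow was left out for CHRM3 to CHRM2 (-0.66 to 1.51), ADRA1D to ADRA1B (-0.54 to 0.71), ADRA1A to ADRA1D (-0.34 to 2.26), and for ADRA1A (-0.59 to 1.24), ADRB1 (-0.45 to 0.75) and CHRM2 (-0.58 to 2.43) relative to the smooth muscle markers. It also turned for ADRA1D to ADRA1B with a pseudocount of 5 (0.37) and for ADRA1A relative to muscle with 0.5 (-0.033). The cause was not tested. Depth limits ADRA1A, ADRA1D and CHRM2 most. DESeq2 called 416 genes and limma 0 over all genes, and limma without cow 489215 called 2827. No paired analysis was possible because no cow number is shared by the groups. The overlap counts without each cow and the edgeR counts for the lists were chosen after seeing the data.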

Other observations

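Some genes of the receptor lists stood apart in SF/SCL cow 489215 and were picked after their values were seen. RGS2, an RGS protein that limits Gq signalling, had 198, 289 and 193 in LF/LCL cows 617, 79 and 527, 242 and 1319 in SF/SCL cows 856 and 97, and 5818 in cow 489215. ACHE, acetylcholinesterase, had 59.7, 181 and 12.3 in the LF/LCL cows, 276 and 244 in cows 856 and 97, and 0 in cow 489215. ITPR3, an IP3 receptor, had 956 to 1273 in the LF/LCL cows, 4880 and 6741 in cows 856 and 97, and 728 in cow 489215, and without that cow its log2 fold change was 2.33, opposite in sign to that of ITPR1 (-0.79).

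The log2 ratio of ADRA1B to CHRM3, also picked after the values were seen and given without a test, was 0.61, 0.44 and -0.61 in LF/LCL cows 617, 79 and 527, and -2.07, -0.41 and -2.82 in SF/SCL cows 856, 489215 and 97. The lowest LF/LCL value was below that of cow 489215, and cows 856 and 97 were below all others.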
